A study of Mus musculus with 1824 samples.

Results

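The 7 genes described here encode transcription factors of the primitive streak and of the mesoderm that leaves it: *Mixl1*, *Evx1*, *Gsc*, *Lhx1*, *Mesp1*, *Mesp2* and *Msgn1*. They were chosen by name, as the rows of the count table whose Ensembl identifiers map to these symbols, and all 7 of 7 were found among 55487 genes. No measured value entered the choice of the genes. Their levels were followed in single cells of gastrulating mouse embryos at embryonic day (E) 7.5 and compared with cells from the last 2 plates collected at E8.5.

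The study measured RNA and DNA methylation in single cells of chimaeras, in which cells lacking the *Tet* genes develop beside host cells. Embryonic stem cells with the *Tet* triple knockout (Tet-TKO), carrying a CAG-driven H2B-tdTomato reporter, were injected into C57BL/6J blastocysts, and these were transferred to CD1 recipients. The labels give the strain as CD1 and the tissue as E7.5 or E8.5 embryo, and the series text describes all cells as coming from such chimaeras. They do not give the genotype or sort gate of a cell, so knockout and host cells cannot be told apart here. The methods describe staining for KDR and CD41, surface proteins of blood and vessel precursors, before sorting, so shares of cells describe the sorted wells and not whole embryos.

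At E7.5 there were 11 plates of 96 wells. A plate each held embryos 1, 2, 4 and 5, another carried the name chimera plate 3, and 6 plates are known by a sequencing lane and are called lane plates here. E8.5 cells filled 8 plates, of which plates 7 and 8 are compared with E7.5. Animals are named only for the 4 numbered embryos, and the knockout cells came from a single stem cell line. Plates were therefore treated as technical units, no test was made between stages, and the range over plates stands in for an error.

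During gastrulation, epiblast cells that express the pluripotency factor *Pou5f1* switch on the T-box gene *T* (brachyury) in the primitive streak, lose contact with their neighbours and leave as mesoderm or definitive endoderm. WNT, Nodal, BMP and FGF signals set where this happens along the streak. Cells from its anterior end form the node, prechordal plate and endoderm, whereas cells from more posterior positions form cardiac, lateral, paraxial and extraembryonic mesoderm. The 7 factors mark successive or neighbouring steps of this sequence and later disappear from most of the tissues they helped to form.

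Of the wells at E7.5, 90.5% held at least 100000 reads and were kept, with plate medians from 224956 to 1699478.5 reads. On E8.5 plates 7 and 8, 91.7% of wells were kept (88 on each plate), with medians of 487097 and 557502.5 reads. Levels are reads of a gene per 1000000 reads (CPM) after summing the reads of all cells of a plate, and detection is the share of cells with at least 1 read after each cell was thinned at random to 100000 reads. Intervals are exact 95% intervals that cover counting error only, because amplified reads without molecular identifiers are not independent molecules. Lane plates 1 and 2 stood apart: 60 of the 93 kept cells of lane plate 1 fell in a cluster led by embryonic globin genes, and 27 and 19 of the 89 cells of lane plate 2 fell in 2 clusters led by endothelial genes. All 7 genes were near 0 on lane plate 1 and low on lane plate 2, so levels are given with and without this pair.

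A promoter sequence was at hand for 6 of the 7 genes (RefSeq, GRCm38.p6), and the 250 bases before each start were searched on both strands for a T-box core, AGGTGT, and a TCF/LEF core, CTTTGA, words that T-box proteins and the nuclear partners of WNT signalling are known to bind. At least 1 of these words stood before *Evx1*, *Mesp1* and *Msgn1*, whose windows are printed for that reason up to the first annotated exon base, 5′ to 3′ along the strand of the gene, with the matching letters in capitals.
*Evx1*, chr6:52313248-52313497, plus strand: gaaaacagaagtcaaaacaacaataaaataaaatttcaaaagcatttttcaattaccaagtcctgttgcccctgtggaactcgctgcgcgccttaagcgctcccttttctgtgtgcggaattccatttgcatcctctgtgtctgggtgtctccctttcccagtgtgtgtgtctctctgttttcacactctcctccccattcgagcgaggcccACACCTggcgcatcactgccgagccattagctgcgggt
*Mesp1*, chr7:79793789-79793840, minus strand: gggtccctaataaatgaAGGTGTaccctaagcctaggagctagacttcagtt
*Msgn1*, chr12:11208973-11209198, minus strand: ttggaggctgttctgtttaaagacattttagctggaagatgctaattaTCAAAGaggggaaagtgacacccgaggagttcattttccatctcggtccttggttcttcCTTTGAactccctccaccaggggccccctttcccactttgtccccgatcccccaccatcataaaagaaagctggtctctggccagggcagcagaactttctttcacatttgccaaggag

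The *Evx1* window held the T-box core on the opposite strand, 38 bases before the start, and the *Mesp1* window held it near its far end. *Msgn1* held the TCF/LEF core on each strand, with the copy on the opposite strand farther from the start, and *Mesp1* held it at 31 and 72 bases, inside an annotated exon and not printed. The windows of *Gsc*, *Lhx1* and *Mesp2* held neither word. Of 32851 promoters of this length, 11.8% held the T-box core, 13.8% the TCF/LEF core and 1.85% both, so words of this length are common. The matches are a description of letters and say nothing of binding.

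*Mixl1* (ENSMUSG00000026497, chromosome 1, 180693043 to 180697034, minus strand, GRCm38) encodes a paired-like homeodomain protein that answers to Nodal and BMP in the streak, where it acts in mesoderm and endoderm formation. Over all E7.5 cells it stood at 230.97 CPM, or 290.8 CPM without lane plates 1 and 2. The lowest plate was lane plate 1 at 0.0419 CPM, the median of 11 plates was 211.9 CPM and the highest, the chimera plate, reached 487.7 CPM. Embryos 1, 2, 4 and 5 held 450.3, 403.1, 103.6 and 201.9 CPM. The first pair of embryos lay above the second, and the gap between embryos 1 and 2 was smaller than the SD of 144.8 CPM over the 9 plates. The embryos also differed in their other cells: 50 kept cells of embryo 4 fell in a cluster resembling extraembryonic ectoderm, described with the clusters, where *Mixl1* stood at 5.43 CPM and *Evx1* and *Mesp1* had no read. Cells with neither *T* nor *Pou5f1* at 10 CPM numbered 46 and 42 on embryos 4 and 5, against 4 and 3 on embryos 1 and 2. The part of this makeup in the gap between embryos was not tested, here or for the other genes. After thinning, 43.5% of cells (interval 40.3 to 46.7%) held a read of *Mixl1*, against 52.4% of unthinned cells.

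*Evx1* (ENSMUSG00000005503, chromosome 6, 52313498 to 52318378, plus strand) encodes a homeodomain factor of the posterior streak, where WNT and BMP signals are strong. Its reads cannot be separated fully from those of the antisense gene *Evx1os*, which overlaps it by 1335 bases, since the strand setting of the counting is not stated. Levels ran from 0 on lane plate 1 through a median of 24.1 CPM to 49.2 CPM on the chimera plate. The 4 embryos held 33.9, 30.8, 7.495 and 17.5 CPM in the order of their numbers. As for *Mixl1*, embryos 1 and 2 lay above embryos 4 and 5. Of the thinned cells, 32.8% (interval 29.9 to 35.9%) held a read, against 39.2% unthinned.

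*Gsc* (ENSMUSG00000021095, chromosome 12, 104471209 to 104473330, minus strand), a homeodomain repressor, marks the anterior streak, the organiser and the prechordal plate. It ranged from 0.0179 CPM on lane plate 2 through a median of 11.7 CPM to 51.3 CPM on the chimera plate. Embryos 1, 2, 4 and 5 held 15.7, 28.1, 8.63 and 9.49 CPM. A read was found in 22.4% of thinned cells (interval 19.8 to 25.2%) and in 25.9% unthinned.

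*Lhx1* (ENSMUSG00000018698, chromosome 11, 84518284 to 84525535, minus strand) encodes a LIM-homeodomain factor that acts with *Otx2* and *Foxa2* in the anterior mesendoderm and the visceral endoderm, and in nascent mesoderm. From 0.0167 CPM on lane plate 1 it passed through a median of 91.3 CPM to 275.7 CPM on the chimera plate. Values of 129.9, 241.1, 116.9 and 154.04 CPM were found in embryos 1, 2, 4 and 5. Its embryos differed least of all 7 genes, with an SD of 0.46 on the log2 scale against 0.73 to 1.46 for the other 6. Detection reached 35.9% of thinned cells (interval 32.8 to 39.01%) and 41.7% unthinned.

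*Mesp1* (ENSMUSG00000030544, chromosome 7, 79792241 to 79793788, minus strand) encodes a basic helix-loop-helix factor that is expressed briefly as mesoderm leaves the streak and marks the precursors of the heart and of cranial and extraembryonic mesoderm. It ranged from 0.00837 CPM on lane plate 1 through a median of 60.5 CPM to 249.1 CPM on the chimera plate. In embryos 1, 2, 4 and 5 it stood at 139.7, 160.3, 27.4 and 52.3 CPM. Embryos 1 and 2 were thus several-fold above embryo 4, with embryo 5 between them. A read was seen in 30.96% of thinned cells (interval 28.04 to 34.001%) and 35.04% unthinned.

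*Mesp2* (ENSMUSG00000030543, chromosome 7, 79810727 to 79813439, plus strand) lies 16938 bases from *Mesp1* and encodes a closely related protein that later sets somite borders. Reads shared by this pair of paralogues could have been placed on either gene. It had 0 reads on lane plate 1, a median of 3.24 CPM over plates and 23.9 CPM on the chimera plate. Embryos 1, 2, 4 and 5 held 11.4, 7.65, 0.736 and 1.35 CPM, and here embryos 1 and 2 again lay above embryos 4 and 5. In total, 77 thinned cells (8.05%, interval 6.41 to 9.96%) held a read, against 10.04% unthinned.

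*Msgn1* (ENSMUSG00000047002, chromosome 12, 11208360 to 11208972, minus strand) encodes a basic helix-loop-helix factor that acts downstream of WNT and *T* and drives cells into the presomitic mesoderm. It was the 1 gene of the 7 whose highest plate was not the chimera plate: 0 reads were found on lane plate 1, the median was 7.27 CPM and lane plate 6 reached 55.3 CPM. Embryos 1, 2, 4 and 5 held 8.31, 22.8, 5.47 and 1.06 CPM. The chimera plate, first for the other 6 genes, held the median value. A read was found in 82 thinned cells (8.58%, interval 6.88 to 10.5%) and 10.3% unthinned, and a single cell supplied 11.5% of all *Msgn1* reads at E7.5.

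Without lane plates 1 and 2, the pooled levels of *Evx1*, *Gsc*, *Lhx1*, *Mesp1*, *Mesp2* and *Msgn1* were 27.4, 20.6, 136.2, 109.9, 8.63 and 13.9 CPM, in place of 21.97, 16.4, 108.9, 87.5, 6.90 and 11.05 CPM with them. The shares of thinned cells were then 39.9, 27.5, 43.4, 37.9, 9.82 and 10.3%, and 52.3% for *Mixl1*. Divided by transcript length, the order of the pooled E7.5 levels was *Mixl1* (100.7 CPM per kilobase), *Mesp1* (68.6), *Lhx1* (26.7), *Msgn1* (18.03), *Gsc* (12.9), *Evx1* (7.64) and *Mesp2* (3.55). *Mixl1* came first on 9 of the 9 plates left without lane plates 1 and 2, and *Mesp1* came second on 6. *Mesp2* was last on 8 of them. Positions between these ends were not fixed, and *Msgn1* in particular took any place from 2 to 7, at 1.73 to 90.2 CPM per kilobase.

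**Figure D1:**
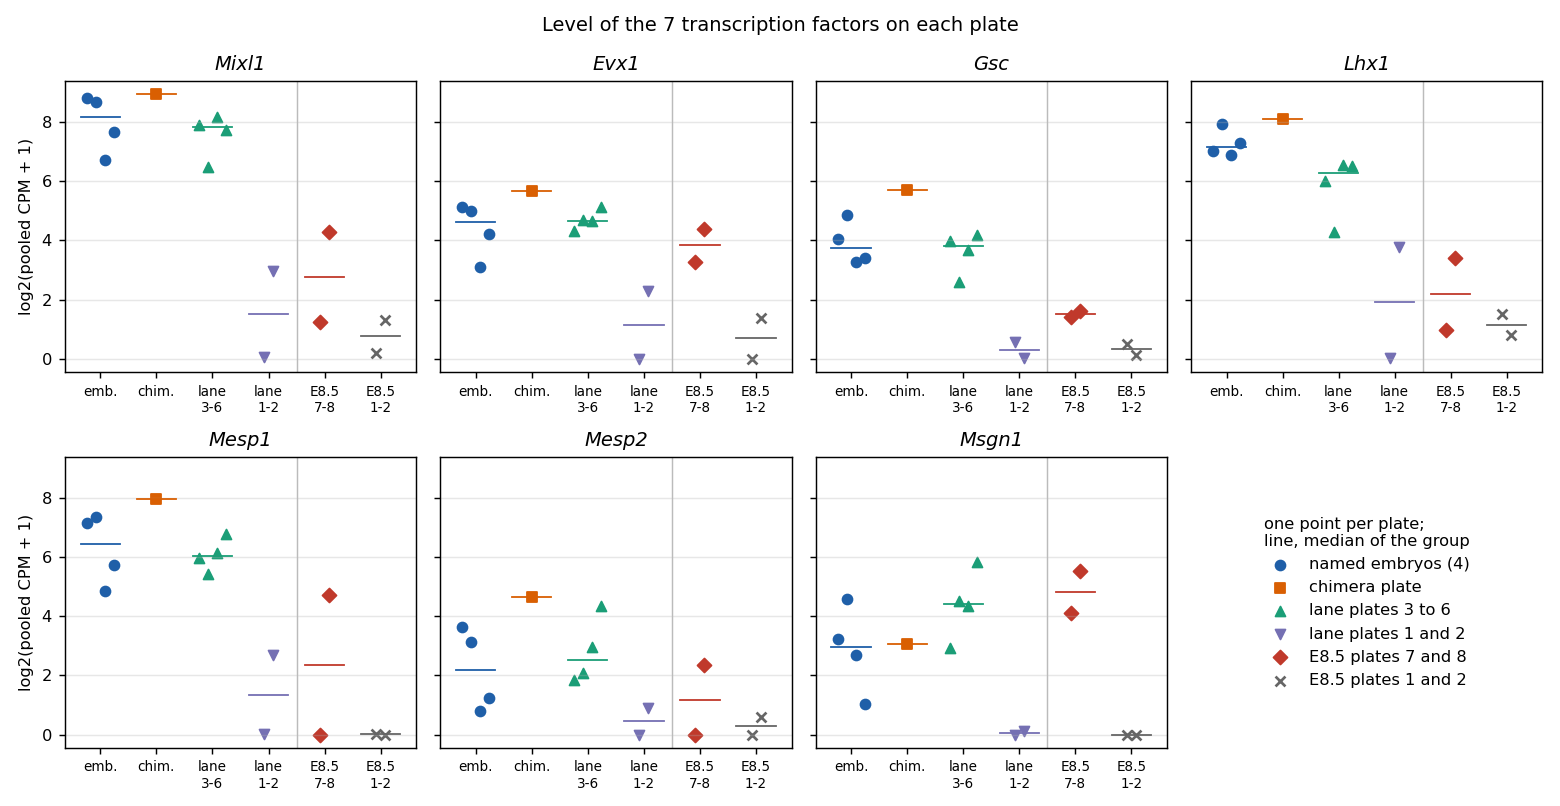
Level of each of the 7 genes as log2(pooled CPM + 1) on the y axis, with 1 point per plate and a line at the median of each group of plates on the x axis (the 4 numbered embryos, the chimera plate, lane plates 3 to 6, lane plates 1 and 2, and E8.5 plates 7 and 8 and 1 and 2). The chimera plate is highest for 6 genes, lane plate 6 is highest for *Msgn1* at 55.3 CPM, lane plates 1 and 2 lie near the bottom and E8.5 plates 7 and 8 lie within the E7.5 range for *Msgn1* (16.03 and 44.9 CPM).

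Expression was concentrated in few cells. Among the cells with at least 10 CPM of *Mixl1* the median was 250.1 CPM and the highest cell held 4949 CPM, while the 96 cells with most reads of the gene supplied 74.5% of them. *Mesp1* reached a median of 201.2 CPM in such cells and *Lhx1* 153.9 CPM. *Evx1*, *Gsc* and *Mesp2* had medians of 51.7, 48.9 and 49.9 CPM. For *Msgn1* there were 72 cells with a median of 75.05 CPM, and 26 more cells held a read below 10 CPM. Its top 96 cells held 99.98% of its reads, a share nearly fixed by the small number of cells with a read.

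Detection in erythroid-rich cells, where these genes are not known to act, gave the background. In the erythroid-like cluster of 65 cells, with a median of 1048862 reads, *Mixl1* was found in 3.1% of thinned cells and the other 6 genes in 0. On E8.5 plates 1 and 2, taken as background because earlier results of these data showed them rich in erythroid cells, with plate medians of 1141636 and 533062 reads, the shares were 2.19% for *Mixl1*, 0.546% for *Evx1*, 1.09% for *Gsc*, 2.73% for *Lhx1* and 0.546% for *Mesp2*. *Mesp1* and *Msgn1* were found in none of the cells there (95.3% of wells kept), which allows a share of up to 2.00% at the exact upper bound. Each E7.5 share over all plates was well above these values, which are the background of erythroid-rich cells only. Some other cells outside the streak held more. *Mixl1* was found in 22.4% of the extraembryonic ectoderm-like cluster of 98 cells, where the other 6 genes were at or below 2.04%. A haematoendothelial-like cluster of 67 cells held *Mixl1* in 17.9% and *Lhx1* in 25.4%. Those of 29 and 26 cells held *Mixl1* in 3.45 and 3.85% and *Lhx1* in 0%.

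To set the 7 genes against the exit from pluripotency, E7.5 cells were split by *Pou5f1* and *T* at 10 CPM, neither of which belongs to the set. Of the kept cells, 17.9% held *Pou5f1* without *T*, 35.1% held both, 7.85% held *T* without *Pou5f1* (75 cells) and 39.1% held neither, at similar median depths of 697595, 738310, 697940 and 767404.5 reads. Each of the 7 genes had its largest share of detected cells in the class with both. *Mixl1* was found in 81.5% of these cells (interval 76.98 to 85.6%), against 32.2% with *Pou5f1* only, 37.3% with *T* only and 15.8% with neither. The share on single plates ran from 60 to 95.8% in the class with both. The share of all genes that are found most often in this class was not computed, so the count of 7 genes has no background beside it.

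*Evx1* was found in 69.6% of cells with both genes, 21.1% with *Pou5f1* only, 25.3% with *T* only and 6.68% with neither. *Lhx1* followed at 67.3, 26.9, 30.7 and 12.8% and *Mesp1* at 64.9, 23.98, 16 and 6.68% in the same order of classes. *Gsc* reached 43.2, 19.9, 18.7 and 5.61%. These 4 genes thus shared the order seen for *Mixl1* in that the class with both genes came first and the class with neither last. In cells with both genes, *Mesp1* stood at 228.2 CPM, against 46.5, 22.5 and 12.4 CPM in the other classes.

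*Msgn1* and *Mesp2* were mostly found in cells with both *T* and *Pou5f1*. *Msgn1* was found in 21.7% of them (73 cells) and in 1.75% of cells with *Pou5f1* only (3 cells), 1.33% with *T* only (1 cell) and 1.34% with neither (5 cells). Of the 82 cells with *Msgn1*, therefore, 73 held both. *Mesp2* was found in 18.75% of cells with both genes and 6.43% with *Pou5f1* only, but in 0 of 75 cells with *T* only, which allows a share of up to 4.80% at the exact upper bound, and in 0.802% with neither. Unthinned, 2.67% of the *T* only cells held a *Mesp2* read and 5.33% a *Msgn1* read.

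The order was checked plate by plate where at least 5 cells stood in both classes. Cells with both genes had a higher share than cells with *Pou5f1* only on 9 of 9 plates for *Evx1*, *Mesp1* and *Msgn1*, on 8 for *Mixl1* and *Gsc* and on 7 for *Lhx1* and *Mesp2*. The exception for *Mixl1* was lane plate 3, where 6 of the kept cells held *Pou5f1* without *T* and all of these held *Mixl1*. Against *T* only, the share was higher on 4 of the 4 plates for each of the 7 genes. The *T* only class rests mainly on these 4 plates, embryos 4 and 5 and lane plates 3 and 4, with 19, 12, 19 and 10 of its 75 cells. Of the 75, 28 (37.3%) fell in the extraembryonic ectoderm-like cluster, 15 of them on embryo 4 and 10 on embryo 5, and that cluster held *T* in 31.6% of its cells and *Pou5f1* in 1.02%. In the *T* only cells of embryos 4 and 5, *Evx1*, *Mesp1*, *Mesp2* and *Msgn1* had no thinned read, whereas on lane plate 3 *Evx1* was found in 52.6% and *Mesp1* in 31.6%. The part of these cells in the shares of the *T* only class was not tested. Lane plate 3 also differed in that it held 237.03 CPM of *Mixl1* beside only 12.8 CPM of *Pou5f1*, whereas the other 8 of the 9 plates held 84.5 to 514.2 CPM of *Pou5f1*.

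**Figure D2:**
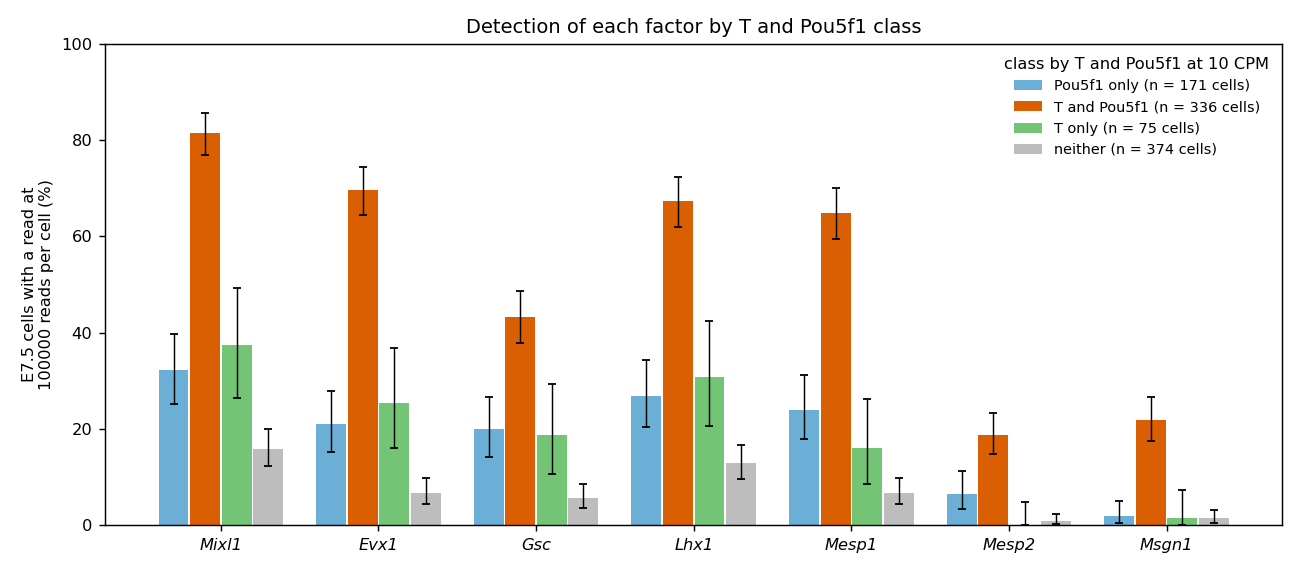
Share of E7.5 cells with a read of each gene after thinning to 100000 reads (y axis, percent), in 4 classes of cells by *T* and *Pou5f1* at 10 CPM, with bars for shares and whiskers for exact 95% binomial intervals. For each of the 7 genes the bar for cells with both genes is the tallest, from 18.75% for *Mesp2* to 81.5% for *Mixl1*, and *Mesp2* and *Msgn1* lie near 0 in cells with *T* only.

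Cells often held several of the factors at once. At 100000 reads per cell, 41.2% of E7.5 cells held none and 58.8% at least 1, while 74 cells held 3, 89 held 4, 47 held 6 and 3 held all 7. At least 4 were thus found in 25.3% of cells. The share ran from 0 on lane plate 1 to 53.2% on the chimera plate, with embryos 1, 2, 4 and 5 at 45.7, 48.9, 8.79 and 20.5%. The most frequent combination, in 56 cells, was *Mixl1*, *Evx1*, *Gsc*, *Lhx1* and *Mesp1* together, followed by *Mixl1* alone in 53 cells.

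Among pairs, *Mesp2* was nearly always found beside *Mesp1*: 71 of 77 cells with *Mesp2* (92.2%, interval 83.8 to 97.1%) held *Mesp1*, against 25.6% of cells without *Mesp2*. The converse was not so, since 23.99% of *Mesp1* cells held *Mesp2*. *Evx1* went with *Mixl1* in 85.03% of its cells (interval 80.6 to 88.8%), against 23.2% of cells without *Evx1*, and this difference had the same sign on 10 of 10 plates. *Gsc* went with *Lhx1* in 80.4% (interval 74.4 to 85.5%) against 23.05%, on 9 of 9 plates. *Msgn1* cells held *Mesp1* in 82.9% and *Evx1* in 81.7% of cases, against 26.1 and 28.3% of cells without *Msgn1*, on 7 of 7 plates for both partners.

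*Gsc* and *Msgn1* were the pair whose shares with and without the other gene were closest. *Msgn1* was found in 8.41% of the cells with *Gsc* (interval 5.06 to 12.97%) and in 8.63% of the cells without it, and the share was higher beside *Gsc* on 3 of 9 plates. Within the cells with both *T* and *Pou5f1* the values were 11.7% (interval 6.98 to 18.1%) of cells with *Gsc* and 29.3% (interval 22.97 to 36.3%) of cells without, with a higher share beside *Gsc* on 1 of 8 plates. In the same class *Gsc* cells still held *Lhx1* more often, in 86.9% against 52.4%, on 7 of 8 plates, while *Mesp1* was found in 66.9% of cells with *Gsc* and 63.4% without. Co-detection was described by shares with no test, because cells of a plate share their preparation and depth.

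**Figure D3:**
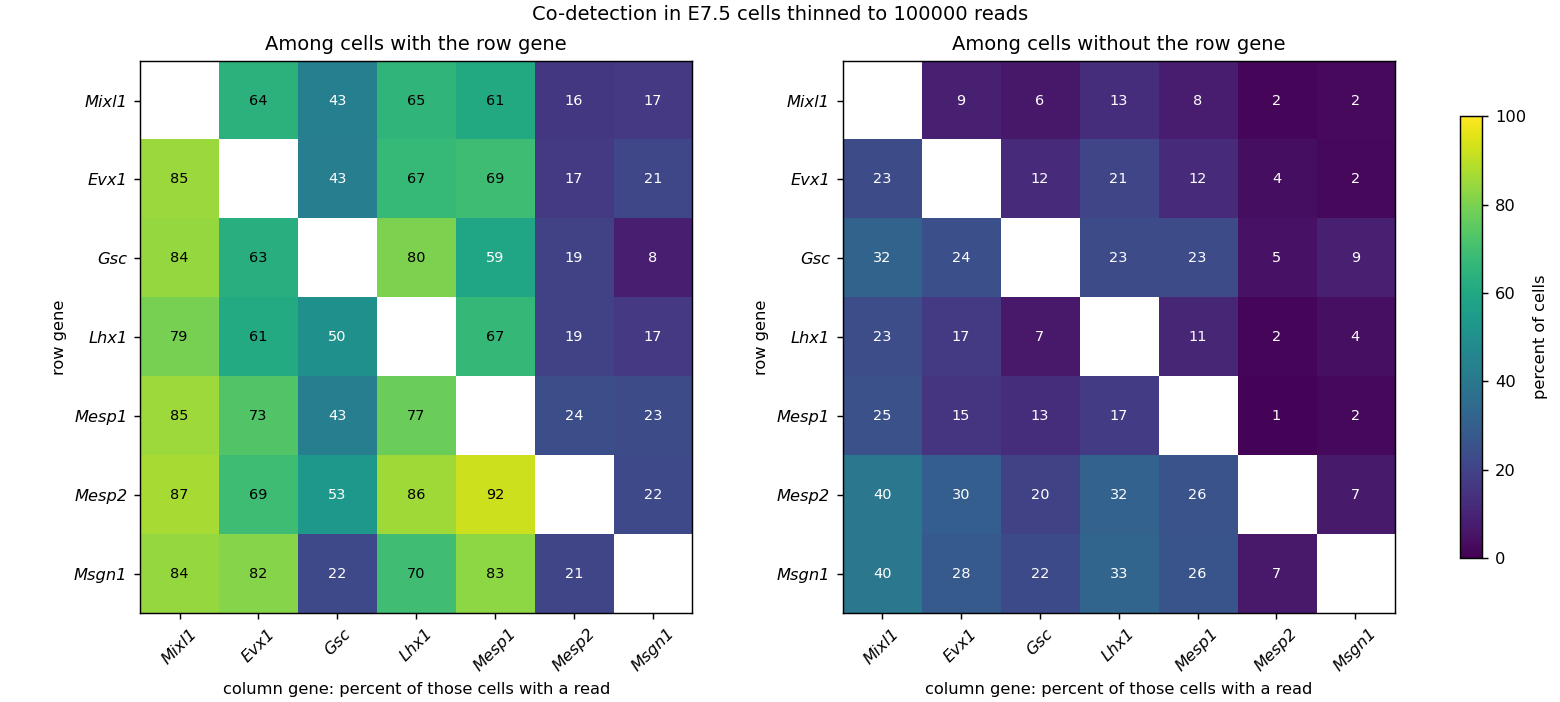
Share of cells holding the column gene (percent, by colour and number) among cells with the row gene and among cells without it, over E7.5 cells thinned to 100000 reads. *Mesp2* cells hold *Mesp1* in 92.2%, *Gsc* cells hold *Lhx1* in 80.4%, and the *Gsc* and *Msgn1* entry is about the same with (8.41%) and without (8.63%) the row gene.

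The genes beside each factor were then compared between cells with and without a read of it, by the log2 ratio of pooled CPM with 1 CPM added, and a gene was called higher past 4-fold. These contrasts follow the choice of cells by the factor itself, and cells without it include blood, extraembryonic and endothelial cells, whose part in the ratios was not tested, so the same contrasts were repeated among the 60.9% of cells with *T* or *Pou5f1*. In a list of 12 genes of the signals and regulators that induce the streak, 8 were higher beside *Mixl1*, against 0.579% of 14500 genes. *Tdgf1*, the Nodal co-receptor, stood at 618.8 against 55.95 CPM and *Lefty2*, a Nodal antagonist, at 71.5 against 5.46 CPM. All of the other 6 factors were also higher beside *Mixl1*. Among cells with *T* or *Pou5f1*, 5 of the 12 were higher, against 0.428% of genes.

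*Evx1* cells were higher for 6 of the 12 genes, against 0.366% of all genes. *Wnt3*, the ligand that starts the streak, stood at 92.6 against 12.6 CPM and *Sp5*, a WNT target, at 55.1 against 7.66 CPM. Limited to cells with *T* or *Pou5f1*, 1 of the 12 stayed past 4-fold, against 0.14% of genes. *T* itself was then at 241.3 CPM with *Evx1* and 83.8 CPM without.

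*Gsc* cells were higher for 4 of the 12 inducers and for 2 of 7 measured genes of the anterior streak and axial mesendoderm, against 0.255% of all genes. Those 2 were *Cer1*, a secreted Nodal, BMP and WNT antagonist, at 323.4 against 16.5 CPM, and *Foxa2*, the forkhead factor of node and endoderm, at 30.8 against 3.65 CPM. Both remained past 4-fold among cells with *T* or *Pou5f1*, where none of the inducers did and 0.14% of genes did.

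*Lhx1* cells were higher for 7 inducers and 5 anterior genes, against 0.759% of all genes. *Cer1* stood at 252.7 CPM in them against 0.710 CPM in cells without *Lhx1*. *Pou5f1* stood at 264.4 CPM with *Lhx1* and 453.6 CPM without among cells with *T* or *Pou5f1*, where 2 inducers and 3 anterior genes stayed past 4-fold, against 0.548% of genes.

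*Mesp1* cells were higher for 7 inducers and 3 of 7 measured presomitic genes, against 0.655% of all genes. *Snai1*, the repressor of epithelial adhesion, was at 120.8 against 15.8 CPM, *Lefty2* at 99.05 against 3.90 CPM and *Dll3*, a Notch ligand of paraxial mesoderm, at 117.2 against 6.27 CPM. *Pdgfra*, a receptor of early mesoderm, reached 154.9 against 20.7 CPM. *Cer1* went the other way, at 18.4 CPM beside *Mesp1* and 122.4 CPM without it. Among cells with *T* or *Pou5f1*, 3 inducers and 2 of 8 presomitic genes stayed past 4-fold, against 0.393% of genes.

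*Mesp2* and *Msgn1* had smaller groups of cells. *Mesp2* cells were higher for 4 inducers and 2 presomitic genes, against 0.172% of all genes (and for none of either list past 4-fold among cells with *T* or *Pou5f1*, against 0.0913%), with *Dll3* at 165.7 against 29.97 CPM and *Dll1*, the main Notch ligand of the presomitic mesoderm, at 59.2 against 11.4 CPM. *Msgn1* cells were higher for 3 inducers and 3 presomitic genes, against 0.545% of all genes. *Tbx6*, which holds paraxial cells to a mesodermal fate, stood at 31.03 against 2.58 CPM and *Dll1* at 77.8 against 9.51 CPM. *Cer1* was at 0.431 CPM in *Msgn1* cells and 97.9 CPM in the rest. None of the other 6 factors passed 4-fold beside *Msgn1*. Among cells with *T* or *Pou5f1*, 0.386% of genes were higher past 4-fold beside *Msgn1*, and the counts of the lists among those cells are not given here.

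*Eomes*, the T-box gene that acts before *Mesp1* in the early streak, had a different order beside *Msgn1*. Among cells with *T* or *Pou5f1* it was higher in cells with each of the other 6 factors than in cells without, at 216.6 against 112.5 CPM for *Evx1*, 228.4 against 58.8 CPM for *Mixl1* and 301.4 against 145.5 CPM for *Mesp2*. With *Msgn1* it stood at 128.8 CPM and without it at 172.98 CPM, and it was higher beside *Msgn1* on 1 of 7 plates. *T* was at 375.96 CPM with *Msgn1* and 135.02 CPM without, higher on 7 of 7 plates. For *Gsc* the pooled *T* level was 169.3 CPM with and 164.99 CPM without, although the medians over cells were 84.7 and 35.9 CPM.

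Because *Gsc* and *Mesp1* mark different exits from the streak, the 87 cells with *Gsc* and no *Mesp1* (9.10% of E7.5 cells) were compared with the cells with *Mesp1* and no *Gsc* (17.7%). A further 13.3% held both. The *Gsc* cells were not limited to cells of the streak. In the visceral endoderm-like cluster described below, *Gsc* was found in 27.6% of cells and *Mesp1* in 3.45%. An epiblast-like cluster of 84 cells held them in 10.7 and 3.57%. The part of such cells in the ratios was not tested. Of 14216 genes, 1.27% were higher past 4-fold in the *Gsc* cells and 0.95% lower. In the anterior list 5 of 7 measured genes were higher and none lower. *Cer1* stood at 873.1 CPM in *Gsc* cells and 3.48 CPM in *Mesp1* cells (log2 ratio 7.61, higher on 8 of 9 plates), and *Foxa2* at 73.3 against 0.617 CPM (log2 ratio 5.52, higher on 9 of 9 plates). *Hhex*, a factor of anterior endoderm, and *Dkk1*, a WNT antagonist, did not pass 4-fold, with log2 ratios of 1.95 and 0.44.

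Presomitic genes went the other way, with 5 of 8 lower in *Gsc* cells and none higher. *Dll1* was at 0.0144 CPM against 44.4 CPM in *Mesp1* cells (log2 ratio -5.49) and *Tbx6* at 0.0287 against 17.998 CPM (log2 ratio -4.21), both lower on 9 of 9 plates. *Cyp26a1*, which degrades retinoic acid, had the opposite sign at 1.06. Of the epiblast list, 3 of 6 genes were higher in *Gsc* cells, among them *Utf1* (log2 ratio 3.01) and *Fgf5* (2.67), while *Pou5f1* was at 381.4 against 261.8 CPM. *Otx2*, the third, is also on the anterior list.

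Of the 12 inducers none was higher and 2 were lower in *Gsc* cells. These were *Wnt3a*, the WNT ligand of the tail end of the streak (log2 ratio -3.08), and *Snai1* (-2.55). *Nodal* lay just inside 4-fold at 1.95 and was higher on 9 of 9 plates. The cardiac and lateral list had 2 of 8 genes lower, *Pdgfra* (-2.62) and *Hand1* (-2.13), and none higher. Among the other 5 factors, *Lhx1* was higher at 1.39, *Mixl1* and *Evx1* stood at -0.64 and -1.42, and *Mesp2* and *Msgn1* passed 4-fold at -2.49 and -5.53.

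**Figure D4:**
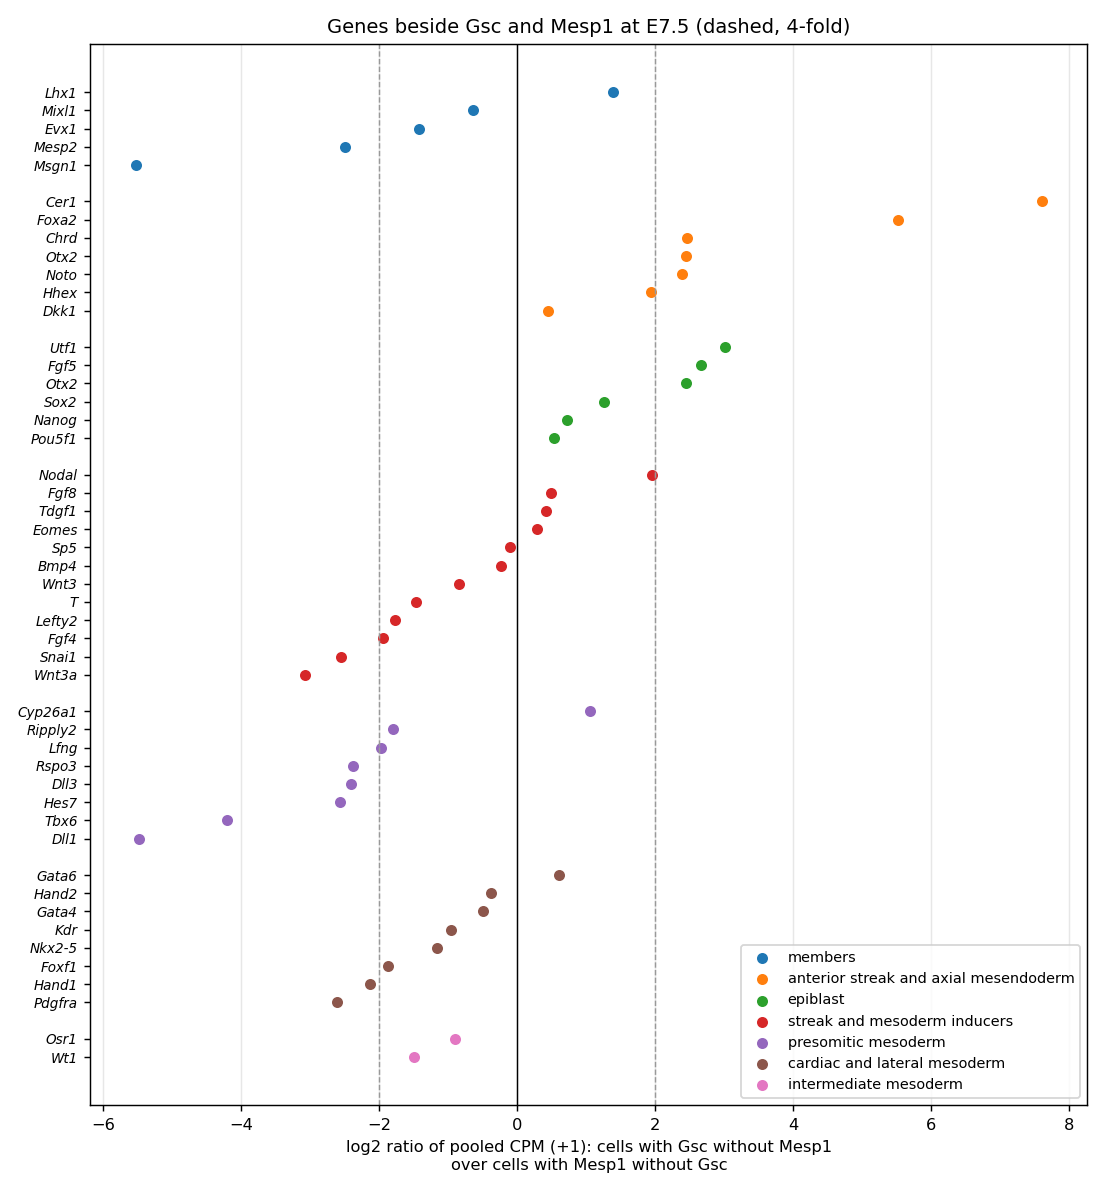
Log2 ratio of pooled CPM (with 1 CPM added) on the x axis for each gene of the context lists and the other factors on the y axis, E7.5 cells with *Gsc* without *Mesp1* over cells with *Mesp1* without *Gsc*, coloured by list, with dashed lines at 4-fold. *Cer1* (7.61) and *Foxa2* (5.52) lie at the right, *Msgn1* (-5.53), *Dll1* (-5.49) and *Tbx6* (-4.21) at the left.

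The genes most like each factor were ranked by Pearson's r of log2(CPM + 1) over all kept E7.5 cells, centred within each plate. These values describe cells that share plates and depth and carry no test. *Mixl1* was closest to *Evx1* (r = 0.64), *Mesp1* (0.63), *Sp5* (0.63) and *Wnt3* (0.61). *Evx1* was closest to its overlapping antisense gene *Evx1os* (0.69) and then to *Mixl1*, and *Lhx1* to *Lhx1os* (0.70), a neighbouring gene on the opposite strand, then to *Gsc* (0.61) and *Cyp26a1* (0.59). *Gsc* was closest to *Lhx1*.

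The bHLH genes had other neighbours. *Mesp1* was closest to *Pdgfra* (r = 0.64), *Mixl1* and *Dll3* (0.60), and *Mesp2* to *Mesp1* (0.46), *Pcdh8* (0.39), a protocadherin of paraxial mesoderm, and *Dll1* (0.37). *Msgn1* was closest to *Hoxb1* (0.54), the first *Hox* gene of the posterior streak, and *Dll1* and *Tbx6* (0.43 each) were also among its first 5. With Spearman's rho in place of r, 2 of the 5 genes were shared for *Mesp1* and *Msgn1* and 1 for *Mesp2*, but 4 or 5 for *Mixl1*, *Evx1*, *Gsc* and *Lhx1*.

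The 1132 cells of E7.5 and E8.5 plates 7 and 8 were also clustered without the 7 genes. Clusters were named only as resembling a class with several markers raised in them, and these markers need not be their leading genes. Names rebuilt in this way may differ from those of the study. *Mixl1* (878.9 CPM), *Mesp1* (405.3 CPM) and *Mesp2* (30.6 CPM) were highest in a primitive streak-like cluster (10.8% of the clustered cells) led by *Tdgf1*, *Lefty2* and *Eomes*. All but 3 of its cells held *Mixl1* and 96.7% held *Mesp1*, while *Msgn1* was at 5.96 CPM. Over the 5 plates with at least 5 of its cells, *Mesp1* ran from 177.5 to 542.3 CPM. For *Mesp2*, an unnamed cluster of 46 cells with a median of 387645.5 reads came next at 30.4 CPM, so that the order of these clusters is not resolved. With 4000 variable genes *Mesp2* was highest in a presomitic mesoderm-like cluster of 49 cells, at 30.1 CPM. That cluster held 0% of the cells of the streak-like cluster named here.

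A second primitive streak-like cluster, of 31 cells, held the highest *Msgn1* of this clustering (128.8 CPM, in 61.3% of its cells) and *Evx1* (98.9 CPM, in 96.8%). *T* was highest there as well, at 485.7 CPM, and *Gsc* low at 1.32 CPM. *Gsc* (103.3 CPM) and *Lhx1* (495.001 CPM) were highest in a cluster of 41 cells resembling definitive endoderm and axial mesendoderm, led by *Cer1*, *Trh* and *Sox17*. The next cluster for *Lhx1*, the larger streak-like one, held 436.1 CPM, and with 4000 variable genes the highest was an unnamed cluster with none of these 41 cells, at 436.3 against 433.3 CPM in the next, so the top of this order was not resolved. In the cluster of 41 cells resembling definitive endoderm and axial mesendoderm, *Msgn1* had no read, for an upper bound of 8.60%, and *Mesp1* was found in 9.76%.

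*Lhx1* was also found in the visceral endoderm-like cluster of 29 cells, at 339.1 CPM and in 75.9% of cells. *Mixl1* stood there at 44.5 CPM, *Gsc* at 14.6 CPM and the other 4 below 5 CPM. A first epiblast-like cluster of 84 cells held 820.9 CPM of *Pou5f1* and none of the 7 above 8.88 CPM, whereas a second of 40 cells, with 853.2 CPM of *Pou5f1* and 283.1 CPM of *T*, held 489.7 CPM of *Mixl1*. The erythroid-like and immune-like clusters were at or below 0.1 CPM for every factor. The cluster highest in *Msgn1* changed with the clustering, and under each of the 4 alternatives it held 0% of the 31 cells named above. It was a presomitic mesoderm-like one of 49 cells at 137.7 CPM with 4000 variable genes, one of 44 cells at 135.5 CPM at resolution 2 and with the 7 genes kept, and an unnamed one led by *Actc1*, *Myl4* and *Tnnt2* at 60.7 CPM at resolution 0.5.

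**Figure D5:**
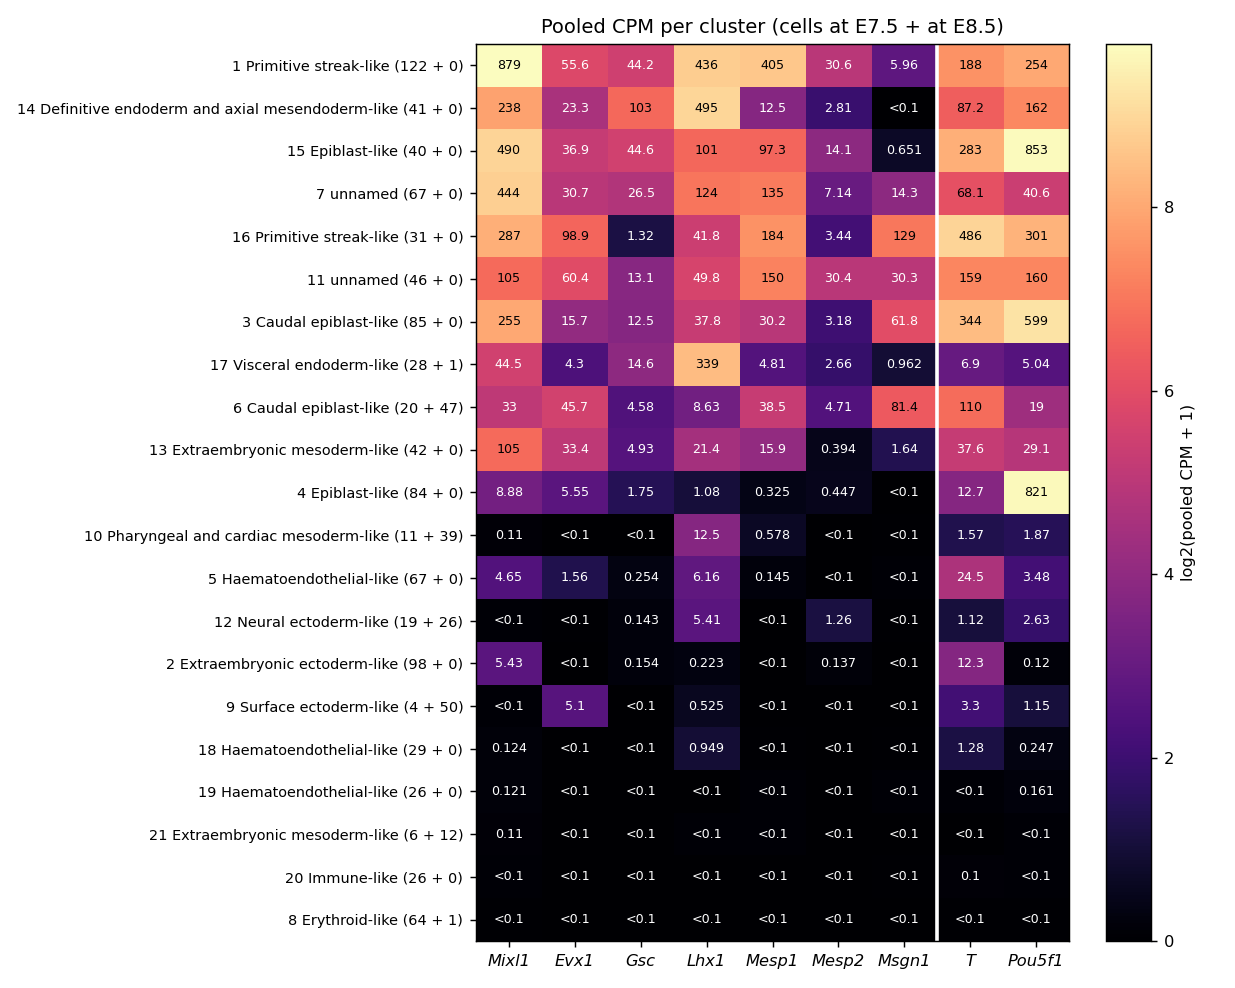
Log2(pooled CPM + 1) by colour for the 7 genes, *T* and *Pou5f1* (columns) in each of 21 clusters (rows, with the number of E7.5 and E8.5 cells). In this clustering *Mixl1*, *Mesp1* and *Mesp2* were highest in the largest streak-like cluster and *Evx1* and *Msgn1* in that of 31 cells. *Gsc* and *Lhx1* were highest in the axial mesendoderm-like cluster of 41 cells. The highest cluster was not resolved for *Mesp2* and *Lhx1*, and that of *Msgn1* changed with the clustering.

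At E8.5, plates 7 and 8 held *Mixl1* at 1.36 and 18.3 CPM, *Lhx1* at 0.951 and 9.67 CPM and *Gsc* at 1.66 and 2.04 CPM. *Mesp1* had 0 reads on plate 7, with an upper counting bound of 0.0626 CPM, and 25.3 CPM on plate 8, and *Mesp2* 0 reads and 4.04 CPM. *Evx1* was found at 8.75 and 19.7 CPM and *Msgn1* at 16.03 and 44.9 CPM. Plate 8 was thus above plate 7 for each of the 7 genes, against 47.1% of 14405 genes, and past 4-fold for *Mesp1* (log2 ratio 4.72), *Mixl1* (3.04), *Lhx1* (2.45) and *Mesp2* (2.33), against 1.66% of genes. The ratios of *Mesp1* and *Mesp2* depend on the 1 CPM added, since plate 7 had no read. *T* differed between the plates in the same direction, at 16.3 and 50.5 CPM, and the sort of either plate is not in the labels.

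Relative to E7.5, 4 of the 7 genes were lower past 4-fold on plates 7 and 8, against 3.06% of 14621 genes, and none was higher, against 1.92%. *Mixl1* was 10.8 CPM at E8.5 (log2 ratio -4.30), *Lhx1* 5.81 CPM (-4.01), *Gsc* 1.87 CPM (-2.60) and *Mesp1* 14.1 CPM (-2.55). *Mesp2* (2.25 CPM, -1.28) and *Evx1* (14.8 CPM, -0.54) lay within 4-fold. *Msgn1* was the 1 factor with a higher level at E8.5, 32.1 CPM (interval 31.2 to 33.1 CPM) against 11.05 CPM, a log2 ratio of 1.46. The median ratio of the 7 genes was -2.55, beside 0.08 for all genes tested. *T* stood at -1.38 and *Pou5f1* at -4.46. Sort and assay may differ between the stages and cannot be told apart from stage in these ratios. *Kdr*, whose protein was stained for sorting, stood at 1.19 and 7.87 CPM on plates 7 and 8. The lowest E7.5 plate held 28.7 CPM of it.

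Since lane plates 1 and 2 were already near 0, no factor lay below all 11 E7.5 plates on both E8.5 plates, against 4.75% of genes. Without this pair, *Mixl1*, *Gsc*, *Lhx1* and *Mesp1* lay below the other 9 plates, against 7.14% of genes, and the same 4 genes passed 4-fold. *Evx1*, *Mesp2* and *Msgn1* overlapped the E7.5 plates. *Mesp1* and *Mesp2* at E8.5 rested on single cells: 1 cell supplied 77.7% of the *Mesp1* reads and 1 cell 85.3% of the *Mesp2* reads. The log2 ratio of Mesp1, E8.5 plates 7 and 8 over E7.5 was -4.40 without that cell, -1.75 without plate 7 and -6.47 without plate 8. Its call is thus lost without plate 7, where it had no read. The log2 ratio of Mesp2, E8.5 plates 7 and 8 over E7.5 reached -2.57 without its leading cell and -2.98 without plate 8, both past 4-fold. Without plate 7, where *Mesp2* had no read, it was -0.65.

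By cells, *Evx1* had the largest share on plates 7 and 8, in 17.6% of thinned cells (interval 12.3 to 24.1%), followed by *Mixl1* in 10.2% (interval 6.17 to 15.7%), *Lhx1* in 9.09% (interval 5.29 to 14.3%) and *Msgn1* in 6.82% (interval 3.57 to 11.6%). *Gsc* was found in 4.55% (interval 1.98 to 8.76%), *Mesp1* in 1.70% and *Mesp2* in 1.14%, and the intervals of these 3, like those of *Lhx1*, overlapped the intervals of E8.5 plates 1 and 2. Overlap of intervals does not show that shares are equal. The shares of *Gsc*, *Lhx1*, *Mesp1* and *Mesp2* were each higher than on E8.5 plates 1 and 2, and the differences were not tested. Unthinned, the shares were 20.5, 12.5, 14.8, 9.09, 5.11, 2.27 and 1.14%. At least 1 of the 7 was found in 31.8% of cells, against 58.8% at E7.5, and 4 or more in 3 cells (1.70%).

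*Msgn1* was found at E8.5 in few cells with high levels. The 11 cells with at least 10 CPM had a median of 318.3 CPM, against 75.05 CPM in 72 cells at E7.5, and a range of 70.7 to 1086 CPM. Of these 11 cells, 11 held *T* and 11 *Rspo3*, a WNT enhancer, at the same limit, 10 held *Dll1*, 9 *Dll3*, 9 *Hes7*, the oscillating repressor of the segmentation clock, and 8 *Tbx6*. Among the other cells these genes were found in 17, 44, 18, 14, 10 and 2. *Mixl1* was found in 8 and *Evx1* in 7 of the 11, and *Gsc* in 0.

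The E8.5 reads came largely from 1 cluster, of 20 E7.5 and 47 E8.5 cells, that resembled caudal epiblast and was led by *Cdx* and posterior *Hox* genes. Its E8.5 cells supplied 99.9% of the E8.5 reads of *Msgn1* and of *Mixl1*, 99.8% of those of *Mesp1*, 97.99% of *Gsc*, 91.6% of *Evx1* and 85.3% of *Mesp2*. *Lhx1* again had a second place: 54.3% of its reads came from this cluster, 30.1% from the pharyngeal and cardiac mesoderm-like cluster and 12.8% from the neural ectoderm-like cluster. Among the 34 E8.5 cells with at least 10 CPM of *Evx1*, 22 held *T* and 27 held *Rspo3*, against 6 and 28 of the cells without, 4.23 and 19.7% of them.

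The lists of related genes placed these ratios in context. At E8.5, 4 of 12 inducers were lower past 4-fold and none higher, with *Tdgf1* at -7.77, *Lefty2* at -4.81, *Nodal* at -3.76 and *Eomes* at 107.8 CPM at E7.5 and 0 reads on both E8.5 plates. Of 6 epiblast genes, 4 were lower, *Utf1* (-5.09), *Fgf5* (-4.79), *Pou5f1* (-4.46) and *Nanog* (-3.29). Of 7 measured presomitic genes, *Cyp26a1* was lower (-2.15) and none higher, with a median of 0.41. *Hes7* (1.70), *Lfng* (1.76) and *Wnt3a* (1.62), the last from the inducer list, had ratios near that of *Msgn1*. The other presomitic genes, *Dll1* (0.71), *Tbx6* (0.41), *Dll3* (0.21) and *Rspo3* (-0.44), lay below it. Of the 8 cardiac and lateral genes, 1 was lower and 1 higher past 4-fold, with a median of 0.86. *Kdr*, a gene used in the sorts, was the lowest at -5.73, and the others ran from 0.14 (*Gata4*) to 2.54 (*Nkx2-5*). In the anterior list of 8 genes 2 were lower, *Cer1* (-6.50) and *Hhex* (-2.39), and 1 higher, *Shh* (2.77). Of 3 measured genes of intermediate mesoderm, 1 was higher, *Osr1* (2.06), and none lower.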

How the data were processed

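RNA was measured by Smart-seq2 in 1824 wells on 19 plates. The paper gives cells with scNMT-seq, which also reads DNA methylation and chromatin accessibility, and further cells with scRNA-seq only. Their numbers match the wells at E8.5 and at E7.5, in that order. Assay may thus run with stage, and its part in the ratios between stages was not tested. Per the labels, the authors aligned reads with HISAT2 2.1.0 to GRCm38 and counted them per Ensembl gene with featureCounts, whose version and strand setting are not given in the sources used here, and deposited the raw counts. The counts carry no molecular identifiers. Cells with at least 100000 reads were kept, levels are CPM of reads summed per plate, cluster or class, and shares come from cells thinned once to 100000 reads (seed 1). Total reads per cell, given with the results, set the precision. The 7 genes, the related gene lists and the choices of comparison were made with earlier results of these data known. All 7 genes are named, and other genes are named from those lists or as the first 5 in likeness. Ratios between stages or classes add 1 CPM, use genes of at least 1 CPM and call a gene past 4-fold, with no test because plates are technical units and animals are named for only 4 of them. Of 55487 identifiers, 55141 had a symbol, and 1 well was empty. Coordinates and lengths are from GENCODE on GRCm38.

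Clusters were made with scanpy 1.11.5 and igraph 0.11.9 from counts scaled to 10000, 2000 variable genes without the 7, 30 components, 15 neighbours and Leiden resolution 1. A name needed at least 3 markers found in 25% of cells and 2-fold higher, and at least 2 markers among the 50 leading genes. No other class could hold more markers among the 10 leading genes. Of 21 clusters, 19 were named. No doublet caller was run on the sorted wells, so the deepest cells of each plate were left out as an alternative. Alternatives used other depth limits, thinning depths, pseudocounts, class limits and clusterings, TMM (edgeR 4.0.16) and DESeq2 1.42.0 size factors for scaling only, and each plate left out. Only the ratio calls and the pair shares were tried on simulated data, and the other steps were not.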

Additional observations from a re-analysis of the deposited data

Results flagged for a closer look

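Plates of E8.5 that entered no comparison were read for the 7 genes, and 3 values of at least 1 CPM had a lower counting bound above the upper counting bound of E8.5 plates 1 and 2, which served as background. The bounds cover counting error of amplified reads only. *Mixl1* stood at 2.90 CPM and *Evx1* at 6.13 CPM on E8.5 plate 4. There, 1 cell supplied 59.1% of the *Mixl1* reads and 18.5% of the *Evx1* reads. On E8.5 plates 1 and 2, 1 cell supplied 83.8% of the *Mixl1* reads and 100% of the *Evx1* reads. *Lhx1* stood at 2.49 CPM on E8.5 plate 3. *Mesp1* was above this bound but under 1 CPM on E8.5 plate 4, at 0.959 CPM (interval 0.679 to 1.32 CPM) and in 7 thinned cells (8.54%), and on E8.5 plate 3, at 0.101 CPM. The cells behind these values were not examined further.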

How the results depend on the processing

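No paired analysis was possible because the results come from no test. The number of the 7 genes lower past 4-fold at E8.5 was 4, against 3.06% of all genes. It was 2 at 8-fold, against 1.11% of genes, and 5 at 2-fold, against 12.017%. *Msgn1* was higher past 2-fold, against 9.52% of genes. The number lower past 4-fold ranged from 3 to 5 when each plate was left out. It was 3 where E8.5 plate 7 was left out and 5 where plate 8 was. It stayed at 4 without lane plates 1 and 2, an alternative chosen after seeing the data. All 7 genes had their largest share in cells with both *T* and *Pou5f1* under each alternative run, with each E7.5 plate left out in turn. The share of all genes with this order was not computed. None of the log2 ratios of the 7 genes changed sign under the alternatives run, whereas the median ratio of all genes went from 0.08 to -0.0085 with no filter beyond 1 read. The log2 ratio of Msgn1, E8.5 plates 7 and 8 over E7.5 ran from 0.50 without E8.5 plate 8 to 1.93 without E8.5 plate 7, and the log2 ratio of Evx1, E8.5 plates 7 and 8 over E7.5 from -1.24 to -0.15. With at least 3 reads needed for detection, percent of Gsc cells with Msgn1 was 2.90%. Shares in the small class with *T* only moved with its limit, and percent of T only cells with Mesp1 was 37.9% at 50 CPM. The highest cluster of *Msgn1* held 60.7 CPM at resolution 0.5 and 135.5 CPM at resolution 2, and both are clusters with none of the 31 cells reported. The causes of these differences were not tested. Depth limits the shares: thinning took *Mixl1* from 52.4 to 43.5% and *Msgn1* from 10.25 to 8.58% of cells.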
